A study of Homo sapiens with 24 samples.

Results

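The genes described here are 9 regulators and markers of epithelial identity: SNAI2, GRHL2, GRHL1, OVOL2, ZEB1, ESRP1, ESRP2, CDH1 and EPCAM. Every array probe annotated to any of these symbols was taken, which gave 14 probes for 9 of the 20046 genes named on the array. SNAI2 and GRHL2 were chosen by their measured log2 changes with DHT and dexamethasone on these same arrays, so their values are given as a description, and nothing is supported by the calls that the fit across all genes makes for them. The other genes were tested where they could be measured. The samples were LREX' cells, an enzalutamide-resistant human prostate cancer line of LNCaP origin with a high level of the glucocorticoid receptor, so all values describe 1 line. All groups were kept in charcoal-stripped medium, which removes steroids, and were harvested after 8 h. The antiandrogen enzalutamide was combined with the androgen dihydrotestosterone (DHT, 1 nM), with the synthetic glucocorticoid dexamethasone at 10 nM or with dexamethasone at 100 nM. Further groups received enzalutamide alone (10 µM), DHT alone (1 nM), dexamethasone alone at 10 nM or 100 nM, or the vehicle DMSO. The labels give the enzalutamide dose for the drug alone only. Each of the 8 groups held 3 arrays of cultures that the series describes as biological triplicates.

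Epithelial identity is held by transcription factors that oppose each other. SNAI2 (Slug) and ZEB1 are zinc-finger repressors that bind E-box sequences of epithelial genes such as CDH1, and their rise is a hallmark of epithelial-mesenchymal transition. GRHL2 and OVOL2 repress ZEB1 and sustain epithelial genes, and GRHL2 also binds with the androgen receptor at chromatin sites in prostate cancer cells. The RNA-binding proteins ESRP1 and ESRP2 keep the epithelial splicing pattern, while CDH1 (E-cadherin) and EPCAM are adhesion proteins of the epithelial cell surface.

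The 24 arrays were alike in brightness, with a median signal of 59.4 on the dimmest and 69.5 on the brightest, and between 19463 and 21017 probes detected on each. Arrays of a group correlated at 0.992 to 0.995 across genes. The number of arrays limits the precision: over all 12895 genes tested, the standard error of a log2 difference between groups was 0.117 at the median. Of 8 luminal prostate markers with a probe, 7 were detected on all 24 arrays, KRT8, KRT18, HOXB13 and FOXA1 among them, and KRT19 on 1 array. The basal keratins KRT5, KRT14 and KRT15 were detected on none. In bulk RNA, a change in the share of cells that express a gene and a change in the amount of RNA per cell cannot be told apart.

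SNAI2 was below the detection limit with vehicle and above it with DHT and with 100 nM dexamethasone. With enzalutamide it was below the limit when combined with DHT and above it when combined with 100 nM dexamethasone. A probe counts as detected on an array where its signal exceeds that of the negative control beads at a detection p under 0.05. SNAI2 has a pair of probes. The brighter one, ILMN_2082585, was read by 14 to 31 beads per array and was detected on 9 of the 24 arrays: all 3 with DHT, all 3 with 100 nM dexamethasone and all 3 with enzalutamide plus 100 nM dexamethasone. It was detected on 0 of 3 arrays in each of the other 5 groups.

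With DHT, the deposited signals of the brighter SNAI2 probe were 117, 121 and 132 (detection p from 0.001299 to 0.003896). With vehicle they were 46.5, 52.4 and 44.8, at detection p-values of 0.722, 0.478 and 0.925. The DHT arrays all lay above the lowest detected signals, which ran from 64.5 to 77.8 over the 24 arrays, and the vehicle arrays all lay below them. With 10 nM dexamethasone the signals were 64.2, 65.3 and 67.1, at detection p-values of 0.0792, 0.0701 and 0.0533. With 100 nM dexamethasone they were 145, 124 and 143. The arrays at 10 nM stayed just short of detection, and those at 100 nM were all detected and overlapped the DHT arrays.

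On the normalized log2 scale the brighter SNAI2 probe averaged 6.42 with DHT and 4.48 with vehicle (SD 0.10 and 0.08, n = 3 arrays each). The difference was 1.95 ± 0.08 (± here and below is the standard error of a log2 difference). Because the vehicle level has only an upper bound, the DHT level was at least 2.65-fold higher. At 100 nM dexamethasone the probe averaged 6.65 (SD 0.16), a difference of 2.17 ± 0.08 from vehicle and a level at least 3.11-fold higher. At 10 nM it averaged 4.96 (SD 0.07), and no fold is given against vehicle because neither group was detected. Between 10 and 100 nM the difference was 1.69 ± 0.08, at least 3.02-fold. These sizes hold for the background correction used. With no background correction the dose difference was 1.04, and with the authors' normalized values it was 2.402. The difference of DHT from vehicle ran from 1.09 with a larger offset of 50 to 2.13 with the authors' values. The authors' values below 16 were set to 16 before the log2 step. The 10 nM dexamethasone and vehicle groups then differed by 0.00017, so sizes with those values depend on that floor.

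Adding enzalutamide to DHT brought the brighter SNAI2 probe to signals of 48.0, 40.2 and 46.5, against 117, 121 and 132 with DHT alone. None of the 3 combination arrays was detected, and the log2 difference was -2.01 ± 0.08, at least 2.66-fold lower. Adding enzalutamide to 100 nM dexamethasone left signals of 126, 138 and 134, against 145, 124 and 143 with dexamethasone alone. The arrays of these groups overlapped, and the log2 difference was -0.09 ± 0.08 (95% interval -0.25 to 0.08). At 10 nM dexamethasone, the combination gave 64.6, 65.3 and 74.6, against 64.2, 65.3 and 67.1 without enzalutamide, with no array detected on either side. Enzalutamide alone gave 44.9, 44.4 and 53.1 and overlapped the vehicle arrays.

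**Figure D1:**
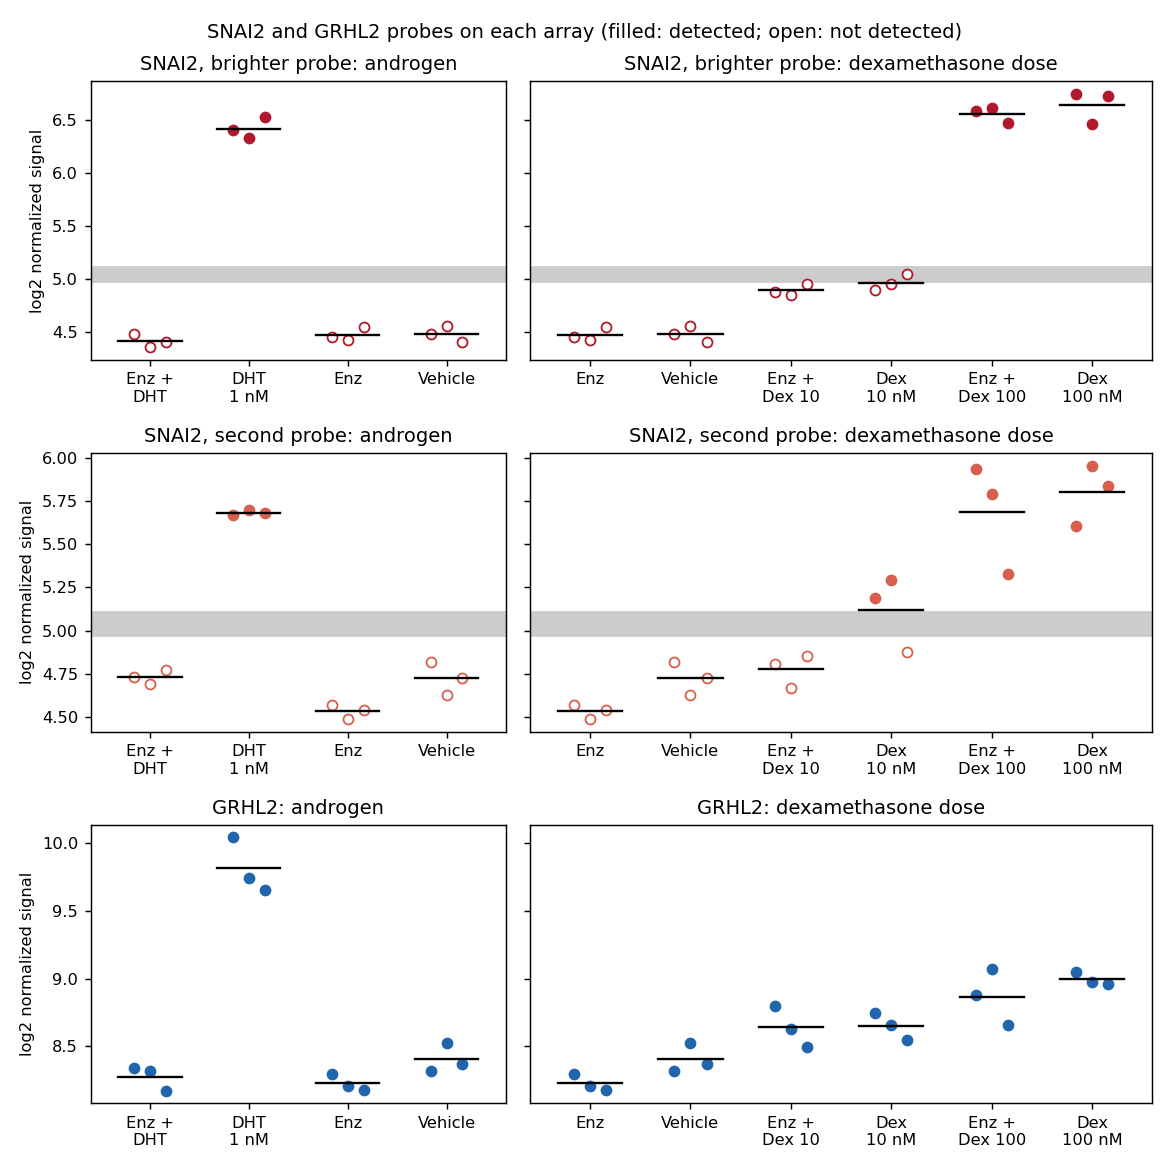
Log2 normalized signal of each SNAI2 probe and of the GRHL2 probe on every array, with treatments along the horizontal axis (androgen arms left, dexamethasone arms by dose right). Points are arrays, filled where detected and open where not, lines are means of 3 arrays, and the grey band spans the lowest detected log2 levels of the 24 arrays (4.97 to 5.11). The brighter SNAI2 probe averages 6.42 with DHT, 6.65 with 100 nM dexamethasone and 4.41 with enzalutamide plus DHT.

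Within the groups that received enzalutamide, SNAI2 was detected with 100 nM dexamethasone and not with DHT. Enzalutamide plus 100 nM dexamethasone exceeded enzalutamide alone by 2.09 ± 0.08, at least 2.90-fold. No difference is given between enzalutamide plus DHT and enzalutamide alone, since neither was detected. The change on adding enzalutamide was 1.92 ± 0.11 higher with 100 nM dexamethasone than with DHT, where the DHT side holds an undetected group. In the order of group means the 100 nM dexamethasone group came first, followed by enzalutamide plus 100 nM dexamethasone (6.56, SD 0.08) and DHT. The arrays of neighbours among these 3 groups overlapped. The other 5 groups were all below detection on this probe and have no order.

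The second SNAI2 probe, ILMN_1655740, was detected on 11 arrays, the same 3 groups plus 2 of the 3 arrays with 10 nM dexamethasone. Its signals were 84.2, 91.0 and 90.6 with DHT, against 60.4, 55.7 and 62.4 with vehicle. At 10 nM dexamethasone it read 72.1, 74.6 and 63.0, of which the last was not detected (detection p of 0.0260, 0.0208 and 0.0935). At 100 nM it read 85.4, 98.2 and 95.04. It moved the same way as the brighter probe with smaller differences. They were 0.96 ± 0.13 for DHT and 1.07 ± 0.13 for 100 nM dexamethasone against vehicle, and -0.95 ± 0.13 on adding enzalutamide to DHT. This probe too was detected on 0 of 3 arrays with vehicle and with enzalutamide plus DHT, so these are not measured sizes. The fold bounds given above are those of the brighter probe and do not hold for the smaller differences of this one. The probe pair did not settle the 10 nM dose. The second probe was detected there on 2 of 3 arrays, and enzalutamide plus 10 nM dexamethasone read 62.6, 58.7 and 71.0 with none detected.

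ZEB1, the other E-box repressor of the set, was not detected on any of the 24 arrays. Its single probe, ILMN_1762231, gave signals between 33.9 and 53.9, with detection p-values from 0.560 to 0.999, so that no change could be measured in either direction. The highest of these signals lay below the lowest detected signal of any array.

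GRHL2, the grainyhead-like activator of epithelial genes, was detected on all 24 arrays by its single probe ILMN_2060145 and followed DHT more than dexamethasone. Its signals were 1066, 932 and 843 with DHT, against 361, 417 and 414 with vehicle. With 10 nM dexamethasone they were 460, 415 and 352, and with 100 nM they were 565, 538 and 517. Every DHT array was above every 100 nM dexamethasone array, and every 100 nM array was above every vehicle array. On the log2 scale DHT differed from vehicle by 1.41 ± 0.11 (2.66-fold), 10 nM dexamethasone by 0.25 ± 0.11 (1.19-fold) and 100 nM dexamethasone by 0.59 ± 0.11 (1.51-fold). Set directly against DHT, 100 nM dexamethasone was lower by -0.82 ± 0.11 (95% interval -1.05 to -0.59), a 1.76-fold difference.

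Enzalutamide took GRHL2 with DHT to 360, 360 and 330, against 1066, 932 and 843 with DHT alone, a log2 difference of -1.54 ± 0.11. These combination arrays overlapped the vehicle arrays on the log2 scale. With 100 nM dexamethasone, enzalutamide left 464, 555 and 466, against 565, 538 and 517 without it, and the log2 difference was -0.13 ± 0.11 (95% interval -0.36 to 0.10). With 10 nM dexamethasone the corresponding difference was -0.01 ± 0.11 (95% interval -0.24 to 0.22). Enzalutamide plus 10 nM dexamethasone read 497, 433 and 486, against 339, 315 and 328 with enzalutamide alone, and the groups did not overlap. Relative to enzalutamide alone the log2 difference was 0.41 ± 0.11 for the combination with 10 nM dexamethasone, 0.64 ± 0.11 for that with 100 nM and 0.05 ± 0.11 for that with DHT. The change on adding enzalutamide was 1.41 ± 0.15 higher with 100 nM dexamethasone than with DHT, and 1.53 ± 0.15 higher with 10 nM dexamethasone than with DHT.

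For the brighter SNAI2 probe, 100 nM dexamethasone against DHT gave 0.23 ± 0.08 with overlapping arrays. Over the alternative fits this difference ran from 0.16 with no background correction to 0.32 without dexamethasone replicate 2. Which steroid gives the higher SNAI2 level is not settled by these values. For GRHL2 the arrays of the same groups did not overlap. Whether the genes differ in this contrast was not tested. In the order of GRHL2 means only the DHT group (9.81, SD 0.20) stood clear of its neighbour, since every other pair of neighbours from 100 nM dexamethasone (8.995, SD 0.05) down to enzalutamide alone (8.23, SD 0.06) had overlapping arrays.

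**Figure D2:**
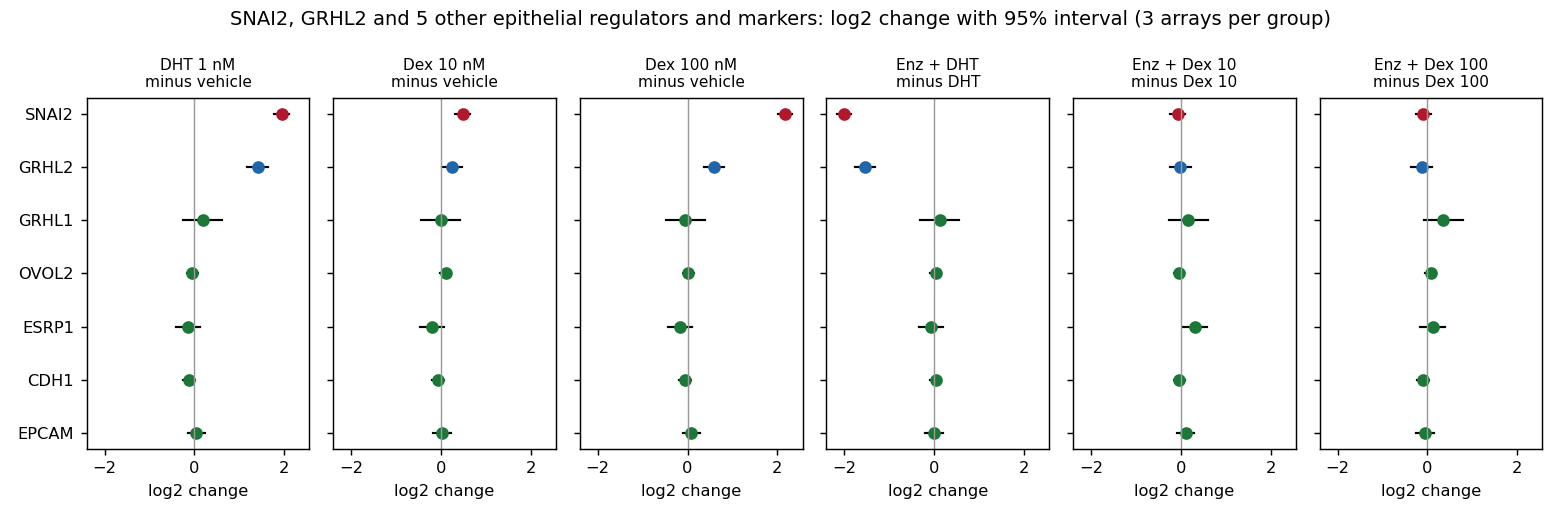
Log2 change (horizontal axis) of the 7 genes that could be measured (vertical axis) in 6 comparisons, each panel titled with the group on top and the group it is set against. Points are the limma estimates from 3 arrays per group and bars are 95% intervals, and for SNAI2 a change that involves an undetected group is not a measured size. SNAI2 and GRHL2 lie at 1.95 and 1.41 for DHT minus vehicle and at -2.01 and -1.54 for enzalutamide plus DHT minus DHT, while the other 5 genes stay between -0.20 and 0.35 in all 6 panels.

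GRHL1, a paralogue of GRHL2, did not pass the test in any comparison. Its brightest probe, ILMN_1795767, read 132, 124 and 144 with DHT, against 114, 110 and 159 with vehicle, so the groups overlapped. The log2 change was 0.19 ± 0.21 (95% interval -0.25 to 0.62, limma adjusted p = 0.827). The second probe, ILMN_1769934, also detected on all 24 arrays, gave -0.34 ± 0.23 for the same comparison (adjusted p = 0.740 over all probes), so the probes differed in sign and neither passed. Another GRHL1 probe, ILMN_1651286, was detected on 2 of 24 arrays and was not tested. With 100 nM dexamethasone the brightest probe changed by -0.05 ± 0.21 (limma adjusted p = 0.948).

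OVOL2, a zinc-finger repressor of mesenchymal programmes, had 1 probe, detected on every array, with log2 levels from 9.57 to 9.91. It read 840, 895 and 814 with DHT and 884, 907 and 829 with 100 nM dexamethasone, against 902, 900 and 944 with vehicle. The log2 changes were -0.04 ± 0.06 for DHT and 0.02 ± 0.06 for 100 nM dexamethasone (limma adjusted p = 0.883 and 0.923). Its largest difference was between enzalutamide plus 100 nM dexamethasone and enzalutamide alone: log2 levels of 9.91, 9.79 and 9.69 in the combination, against 9.65, 9.57 and 9.59 with enzalutamide alone. The arrays did not overlap and the difference was 0.19 ± 0.06, but it did not pass (limma adjusted p = 0.0745). This was the lowest adjusted p of the 5 measured genes other than SNAI2 and GRHL2 over the 16 comparisons. Without replicate 3 of the combination it was 0.25 and passed (limma adjusted p = 0.0248).

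ESRP1, the splicing regulator, was detected on every array near the lower end of the measurable range, with signals from 96.4 to 146. It read 107, 107 and 115 with DHT, against 116, 118 and 130 with vehicle, a log2 change of -0.14 ± 0.13 (limma adjusted p = 0.775). With 100 nM dexamethasone it changed by -0.16 ± 0.13 (limma adjusted p = 0.605), and its highest group mean was with enzalutamide plus 10 nM dexamethasone (6.45, SD 0.11). ESRP2, its paralogue, was detected on 0 of 24 arrays, with signals from 41.2 to 61.1 and detection p-values of 0.214 and above. Expression arrays of this kind read total transcript at the probe and say nothing of splicing itself.

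CDH1 and EPCAM, the surface adhesion genes, were bright, and neither passed the test in any comparison. CDH1 read 4027, 4080 and 3647 with DHT and 4135, 4100 and 3910 with 100 nM dexamethasone, against 4099, 4219 and 4945 with vehicle. Its log2 change was -0.12 ± 0.06 with DHT (95% interval -0.25 to 0.01, limma adjusted p = 0.436) and -0.06 ± 0.06 with 100 nM dexamethasone (limma adjusted p = 0.748). The 8 CDH1 group means spanned 0.16 on the log2 scale. Those of the brightest EPCAM probe, ILMN_2160210, spanned 0.18, and those of ILMN_3249032 and ILMN_2160209 spanned 0.24 and 0.39.

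EPCAM changed by 0.05 ± 0.09 with DHT (limma adjusted p = 0.917) and by 0.09 ± 0.09 with 100 nM dexamethasone (limma adjusted p = 0.729) on its brightest probe. The other EPCAM probes gave -0.07 ± 0.08 (ILMN_3249032) and 0.25 ± 0.14 (ILMN_2160209) for DHT against vehicle, and all 3 were detected on every array. For DHT against vehicle the intervals allow a change of 0.62 for GRHL1, as large as some of the changes given for other genes, and of -0.25 for CDH1.

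**Figure D3:**
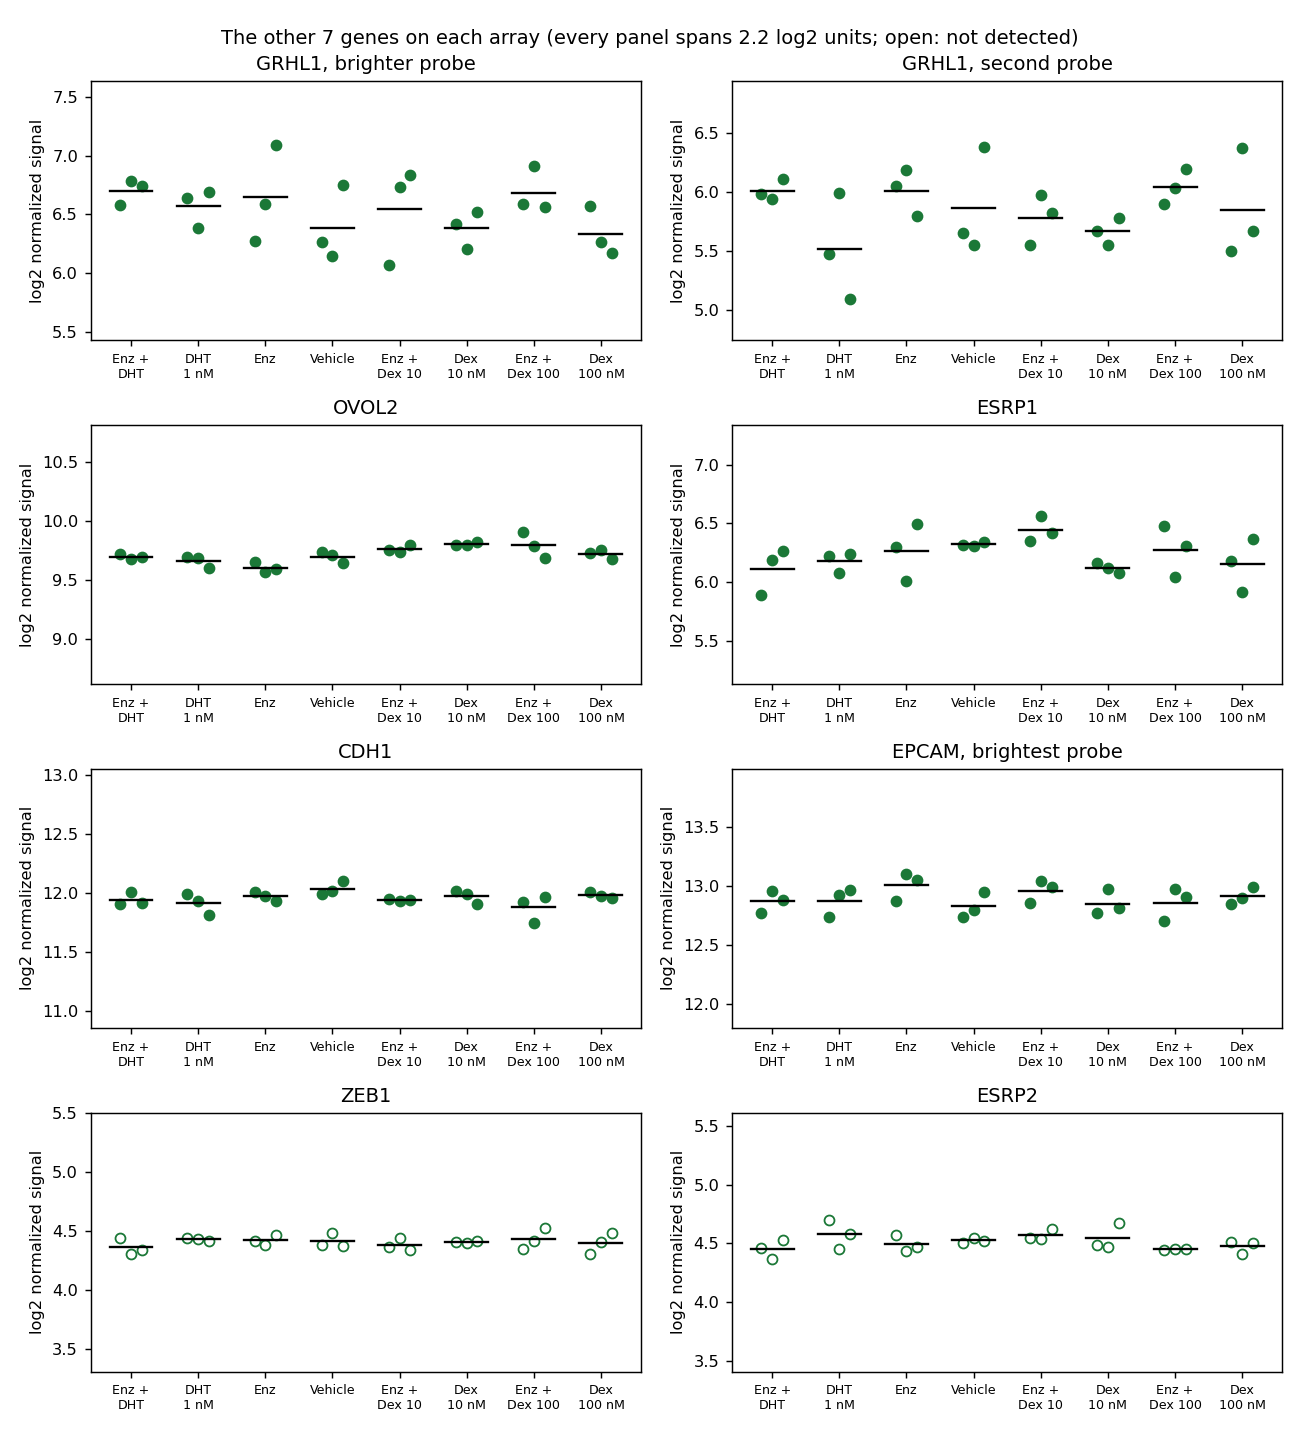
Log2 normalized signal on every array for the 7 genes other than SNAI2 and GRHL2, with the brighter probe pair for GRHL1 and the brightest probe for EPCAM, by treatment along the horizontal axis. Points are arrays, filled where detected and open where not, lines are means of 3 arrays, and every panel spans the same log2 range. CDH1 group means run from 11.88 to 12.04, and ZEB1 and ESRP2 are open on all 24 arrays.

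The calls of the fit (limma, Benjamini-Hochberg adjusted p under 0.05) over the 7 measurable genes are given to account for each gene, beside the share of all 12895 genes called. For DHT against vehicle 2 of 7 were called, SNAI2 and GRHL2, where 4.26% of all genes were called, and for 100 nM dexamethasone against vehicle the same pair was called where 5.06% of all genes were. With 10 nM dexamethasone against vehicle only SNAI2 was called (2.19% of all genes), on a probe detected in neither group. Adding enzalutamide to DHT gave 2 of 7, both lower (3.72% of all genes). Enzalutamide alone against vehicle called 0 of 7 (0.0155% of all genes).

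Under enzalutamide, 10 nM dexamethasone against enzalutamide alone called SNAI2 (1.08% of all genes), and 100 nM called SNAI2 and GRHL2 (3.4% of all genes), as did enzalutamide plus 100 nM dexamethasone against enzalutamide plus DHT (3.13% of all genes). The dose step from 10 to 100 nM called SNAI2 without enzalutamide (0.651% of all genes) and with it (0.512% of all genes). For 100 nM dexamethasone against DHT the call was GRHL2, lower with dexamethasone (2.61% of all genes). The difference of enzalutamide effects between dexamethasone and DHT called the pair at 100 nM (1.62% of all genes) and at 10 nM (1.9% of all genes). Since SNAI2 and GRHL2 were picked for these responses, nothing is read from these shares.

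The remaining 5 genes gave 0 calls in 16 comparisons. Adding enzalutamide to either dexamethasone dose called none of the 7, and neither did enzalutamide plus DHT against enzalutamide alone. In those 3 comparisons limma called 0% of all genes, with 900 genes at 10 nM dexamethasone, 1050 genes at 100 nM and 428 genes for DHT under enzalutamide reaching an unadjusted p under 0.05.

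Other genes of the same circuit were taken as lists of known function. Of 11 further transcription factors of epithelial-mesenchymal transition with a probe, 4 passed the detection filter. GSC was detected on 24 arrays, FOXC2 on 20, SOX9 on 9 and TWIST2 on 4. The highest signals of FOXC2, SOX9 and TWIST2 were 95.9, 91.6 and 76.9, near background. None of the 4 was called with DHT or with 100 nM dexamethasone, where 4.26% and 5.06% of all genes were called. Nothing is read from 0 calls among these 4 genes. Their median log2 change was 0.13 with DHT and -0.06 with 100 nM dexamethasone, against -0.01 for all genes in each comparison. SNAI1, the nearest paralogue of SNAI2, was detected on no array, as were ZEB2 and FOXQ1. The highest SNAI1 signal was 67.5.

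Among 7 measured epithelial transcription factors, the same 3 genes passed with DHT (where 4.26% of all genes did) and with 100 nM dexamethasone (5.06% of all genes): KLF5 and EHF rose and ELF3 fell. With 10 nM dexamethasone EHF gave 0.19 ± 0.10 and ELF3 -0.26 ± 0.09 and neither passed (limma adjusted p = 0.465 and 0.202), while KLF5 passed at 0.79 ± 0.20 (limma adjusted p = 0.0397) and lost the call in 8 of 15 alternative fits. KLF5, a Krüppel-like factor of epithelial progenitors, averaged 7.08 with DHT and 6.68 with 100 nM dexamethasone, against 5.26 with vehicle (SD 0.11, 0.25 and 0.09). Its log2 changes were 1.83 ± 0.20 (limma adjusted p = 3.04e-06) and 1.42 ± 0.20 (limma adjusted p = 6.56e-05). KLF5 was dim, with a highest signal of 185, and these sizes depended on the processing. Over 15 alternative fits, which all kept the call, they ran from 1.19 to 2.44 and from 0.89 to 1.98. EHF, an epithelial ETS factor, rose by 0.67 ± 0.10 with DHT (limma adjusted p = 0.000305) and by 0.62 ± 0.10 with 100 nM dexamethasone (limma adjusted p = 0.000736). ELF3, another epithelial ETS factor, changed by -0.74 ± 0.09 with DHT (limma adjusted p = 2.38e-05) and by -0.50 ± 0.09 with 100 nM dexamethasone (limma adjusted p = 0.00198). The list median was 0.01 with DHT and 0.12 with 100 nM dexamethasone.

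Enzalutamide acted on these factors with DHT in the direction opposite to DHT itself. Added to DHT it lowered KLF5 by -1.80 ± 0.20 (limma adjusted p = 3.98e-06) and EHF by -1.05 ± 0.10 (limma adjusted p = 1.05e-06), and raised ELF3 by 0.71 ± 0.09 (limma adjusted p = 4.55e-05). Over 15 alternative fits this KLF5 difference ran from -2.40 to -1.18. Added to 100 nM dexamethasone it gave -0.13 ± 0.20 for KLF5, -0.44 ± 0.10 for EHF and -0.10 ± 0.09 for ELF3. None of these passed (limma adjusted p = 0.931, 0.253 and 0.862), in a comparison where 0% of all genes did. Enzalutamide alone against vehicle gave -0.10 ± 0.20 for KLF5, -0.46 ± 0.10 for EHF and 0.05 ± 0.09 for ELF3. None of those passed either (limma adjusted p = 0.941, 0.292 and 0.945), where 0.0155% of all genes did. An effect of enzalutamide on EHF without DHT is therefore not excluded.

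**Figure D4:**
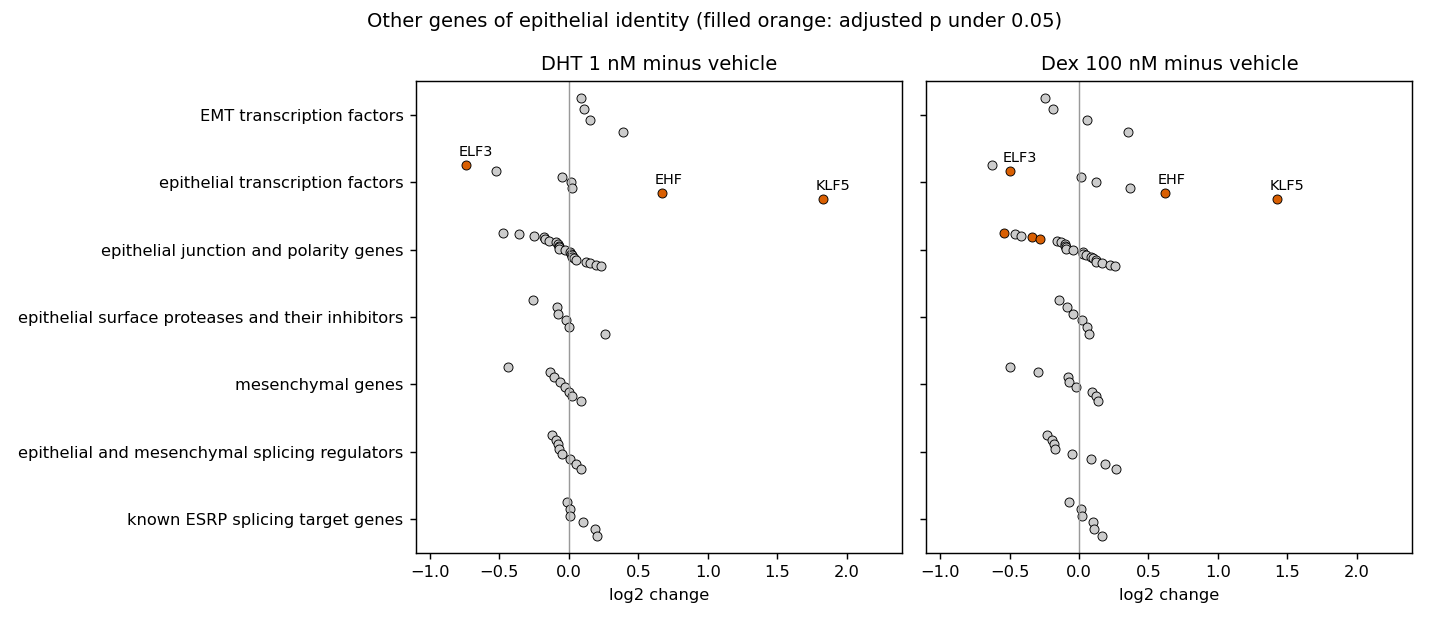
Log2 change (horizontal axis) of the measured genes in 7 lists of epithelial and mesenchymal function (vertical axis) for DHT and for 100 nM dexamethasone, each minus vehicle. Each point is a gene, orange where its limma adjusted p is under 0.05. KLF5 and EHF lie to the right and ELF3 to the left in both panels, and the 3 orange junction genes at 100 nM dexamethasone are MARVELD2, CGN and MARVELD3.

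Of 22 measured epithelial junction and polarity genes, 0 were called with DHT (median -0.05, against 4.26% of all genes called) and 3 were called with 100 nM dexamethasone, all lower (median -0.07, against 5.06% of all genes called and 2.19% called lower). CGN (cingulin, a tight junction protein) changed by -0.34 ± 0.07 (limma adjusted p = 0.00661), MARVELD2 (tricellulin) by -0.54 ± 0.15 (limma adjusted p = 0.0490) and MARVELD3 by -0.28 ± 0.08 (limma adjusted p = 0.0484). Of 15 alternative fits each, the call was kept in 13 for CGN, in 6 for MARVELD2 and in 3 for MARVELD3. CGN did not pass without vehicle replicate 1 (limma adjusted p = 0.0504) or with only the arrays compared (limma adjusted p = 0.159). The calls of MARVELD2 and MARVELD3 were each lost without dexamethasone replicate 2 or 3, or without any vehicle replicate, at limma adjusted p-values of 0.058 to 0.264 and 0.0995 to 0.183. Without dexamethasone replicate 2 MARVELD2 changed by -0.32. In a separate fit with all arrays kept, the mean of its kept probes changed by -0.26 (limma adjusted p = 0.296).

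The mesenchymal list gave 0 calls among 8 measured genes with DHT and with 100 nM dexamethasone (medians -0.05 and -0.05), where 4.26% and 5.06% of all genes were called. Some of the 8 were dim: FN1 was detected on 7 of 24 arrays, and the highest COL1A1 signal was 106. CDH2, CDH11, MMP2, LOX and COL3A1 were detected on no array. VIM (vimentin) was detected on every array and changed by 0.02 ± 0.08 with DHT and by 0.09 ± 0.08 with 100 nM dexamethasone (limma adjusted p = 0.966 and 0.639). The 6 surface proteases and inhibitors, the 8 splicing regulators and the 6 measured ESRP target genes likewise gave 0 calls in these comparisons. Lists this short can give 0 calls at such shares, so nothing is read from the zeros. At an unadjusted p under 0.05, 1705 of all genes passed for DHT and 2122 for 100 nM dexamethasone.

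Markers of other cell types gave the following background. Of 7 measured luminal genes, STEAP1 and STEAP2 were higher and ACP3 lower with DHT and with 100 nM dexamethasone (4.26% and 5.06% of all genes called), and only STEAP1 and STEAP2 were called, both higher, at 10 nM (2.19% of all genes). Of 9 stromal and endothelial markers, COL1A1 and VWF were detected on all 24 arrays, COL3A1, PECAM1 and CDH5 on none and the other 4 on some. CD68 of the immune list was detected on 24 arrays and CD3E on none, and of the neuroendocrine list INSM1 was detected on 16 and SYP and NCAM1 on none. VWF was lower with 100 nM dexamethasone by -0.46 ± 0.10 (limma adjusted p = 0.00486). The summed normalized signal of the 14 stromal probes ran from 314 to 335 with 100 nM dexamethasone, against 381 to 425 with vehicle. It also lay below the vehicle range with DHT (340 to 356) and with enzalutamide plus DHT (315 to 348). The same held for enzalutamide plus 10 nM (287 to 308) and 100 nM dexamethasone (257 to 312). With 10 nM dexamethasone (335 to 387) and with enzalutamide alone (353 to 394) the sum overlapped the vehicle range. This sum includes VWF, which averaged 7.52 on the log2 scale with 100 nM dexamethasone and 7.98 with vehicle. All arrays are of 1 cell line, so the sum does not measure a share of stromal cells. Any link of these probes to the junction genes was not tested.

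Genes with the pattern most like SNAI2 over the 8 group means were sought among 166 genes whose group means spanned at least 1 on the log2 scale. The highest Pearson correlations were those of SLC26A3 (0.993), PTGER4 (0.969), ZC3H12A (0.963), NFKBIA (0.961) and ADPRM (0.958). SLC26A3, an anion exchanger, was detected on 10 of 24 arrays and averaged 5.80 with DHT, 5.85 with 100 nM dexamethasone and 4.47 with enzalutamide plus DHT, against 4.41 with vehicle. For GRHL2 the most alike were GCNT1 (0.998), BEND4 (0.995), HEY1 (0.985), FAM110B (0.976) and C1orf116 (0.974), none of which is among the 5 named for SNAI2. GCNT1, a glycosyltransferase, averaged 9.84 with DHT and 9.26 with 100 nM dexamethasone, against 8.89 with vehicle. SNAI2 and GRHL2 themselves correlated at 0.802 over the same 8 means. These correlations describe 8 groups of the same arrays and carry no test.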

How the data were processed

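RNA of 24 cultures in 8 groups of 3 was hybridised to Illumina expression beadchips. Per the file headers, each deposited signal intensity averages the beads of a probe and has not been normalized. Per the file headers, a deposited detection p-value states how the probe compares with negative control beads. The submitters' processing notes name GenomeStudio; its version was not stated. The authors also deposited normalized intensity values by an unstated method, used as an alternative only, with values below 16 set to 16. On each array 29.4% to 29.6% of those values were below 0.

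The platform annotation gives 1 symbol for 30113 of 47323 probes, several for 8 and none for 17202. Symbols were checked by Entrez identifier against a RefSeq table (30074 matched, 0 changed). No probe positions are printed, as the sources state no build.

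Signals were corrected by normexp with parameters inferred from detection p-values (offset 16), quantile normalized and log2 transformed with limma 3.58.1 in R 4.3.3. Probes detected on at least 3 arrays at a detection p under 0.05 were kept, with the brightest probe per gene (12895 genes). A model of 8 group means was fitted with lmFit and eBayes, with Benjamini-Hochberg adjustment within each of 14 pairwise comparisons and 2 differences of enzalutamide effects. Adjusted p-values of second probes are over the 24607 kept probes. A level undetected on all arrays of a group gives "at least N-fold": the brighter mean over a floor, taken on each array as the probe's own signal or the lowest detected signal if that is higher. Fits were tested on simulated data with changes planted only in genes well above background, so that test does not cover genes as dim as SNAI2.

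The genes, lists and tests were chosen with earlier results of these data known. All 9 genes are named; list genes are named where called for DHT or 100 nM dexamethasone against vehicle (up to 4 a list), and VIM and the marker genes as background. The 5 genes most like SNAI2 and GRHL2 are named by Pearson correlation. Sample titles carry numbers in 3 sets that the labels do not call batches. Arrays of a set correlated in their deviations from group means at -0.0424 to 0.24 (median 0.0877, 35 of 84 pairs over 0.1). The median between sets was -0.0288, and 20 of 24 arrays were closest to their own set. As the labels name no batch, the main fit did not treat sets as pairs, and a block by title set was an alternative.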

Additional observations from a re-analysis of the deposited data

Results flagged for a closer look

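For SNAI2 and GRHL2 the enzalutamide effect with dexamethasone was set against that with DHT, as a contrast of effects in the limma model. Both genes were flagged because this contrast had a limma adjusted p under 0.05. For SNAI2 the change on adding enzalutamide was 1.92 ± 0.11 higher on the log2 scale with 100 nM dexamethasone than with DHT, and 1.94 ± 0.11 higher with 10 nM dexamethasone than with DHT. On the brighter SNAI2 probe, used here, neither 10 nM dexamethasone group was detected, nor was enzalutamide plus DHT. These SNAI2 values are therefore no measured sizes, and the effect of enzalutamide at 10 nM is a difference between undetected levels. The second SNAI2 probe was detected on 2 of 3 arrays with 10 nM dexamethasone alone, so the 10 nM dose is not settled. For GRHL2 these differences were 1.41 ± 0.15 and 1.53 ± 0.15. Both genes were chosen for their steroid response, so these values are a description.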

How the results depend on the processing

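Alternatives were median scaling, no background correction, an offset of 50, the authors' normalized values, no detection filter, the mean of a gene's kept probes, an intensity trend in eBayes, only the arrays compared, a block by title set, and leaving out each array in turn. None reversed a called value. Since SNAI2 and GRHL2 were picked for these changes, their counts across settings support nothing. The size of the SNAI2 change depended on the offset: DHT against vehicle ran from 1.09 with an offset of 50 to 2.13 with the authors' values, and 100 nM dexamethasone against vehicle from 1.26 to 2.402, while GRHL2 ran from 1.298 to 1.49 and from 0.52 to 0.65. The count called for 10 nM dexamethasone against vehicle was 1 and became 0 with the authors' values, an offset of 50 or only the arrays compared. For enzalutamide plus 10 nM dexamethasone against enzalutamide the count of 1 became 0 under the same 3 settings and 2 with median scaling or with the replicate block. The intensity trend kept 1, GRHL2 in place of SNAI2. With the authors' values, the floor of 16 left SNAI2 differences of 0.00017 against vehicle and 0 against enzalutamide. Those fits therefore cannot show a SNAI2 change at 10 nM. With only the arrays compared, enzalutamide plus 100 nM dexamethasone against enzalutamide and against enzalutamide plus DHT each gave 1 in place of 2, without GRHL2. Leaving out an array kept every count, 2 for the main steroid comparisons, except 2 to 3 for enzalutamide plus 100 nM dexamethasone against enzalutamide (OVOL2 added) and 1 to 2 for 100 nM dexamethasone against DHT, where SNAI2 was added without dexamethasone replicate 2 (0.32). The replicate block also called OVOL2 in enzalutamide plus 100 nM dexamethasone against enzalutamide (0.19, limma adjusted p = 0.0461). In all, 2 of 1260 alternative fits called any of the 5 other genes. KLF5 at 10 nM dexamethasone passed in 7 of 15 alternatives. Median scaling moved the median of all genes by -0.12 for 10 nM dexamethasone against vehicle. The title sets placed 20 of 24 arrays closest to their own set, a hint from the data only. The cause of these shifts was not tested. SNAI2 near background, and ZEB1 and ESRP2 below it, limit what these arrays can show.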
